A study of Mus musculus with 5 samples.

Results

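The mRNA levels of 7 genes of cholesterol synthesis (Hmgcs1, Idi1, Fdft1, Sqle, Lss, Cyp51 and Dhcr7) were measured in brain hemispheres bearing a GL261 glioma, with and without ultrasound-mediated blood-brain barrier opening (UMBO). The genes were chosen as a named list and matched by mouse symbol to 1 Ensembl gene each, 7 of the 55573 genes counted, and all 7 passed the filter on low counts. GL261 is a mouse glioma cell line, here carrying luciferase and mKate2, that was injected into the right caudate-putamen of C57BL/6 females aged 7 to 8 weeks. The vehicle group (3 mice) received an antibody dilution buffer and the UMBO group (2 mice) received low-intensity pulsed ultrasound with intravenous microbubbles, in sessions on days 21 and 24. The right hemisphere was taken 24 h after the last session, so every library of both groups holds tumor together with brain, vessels and immune cells. Whether the UMBO mice also received the buffer is not given in the sources used here, and any further mouse of the experiment was not analysed here. The comparison asked whether UMBO alone was followed by a change in the transcripts of these enzymes.

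Cholesterol does not cross the intact blood-brain barrier, so the brain makes its own. In the adult brain oligodendrocytes use it for myelin and astrocytes supply it to neurons, while neurons convert the excess to 24S-hydroxycholesterol, which can leave the brain. The pathway begins with acetyl-CoA and runs through mevalonate to isopentenyl units, which are joined into squalene. Squalene is oxidized, closed into the sterol ring system as lanosterol and trimmed to cholesterol. When sterol in the endoplasmic reticulum is low, the SREBP-2 transcription factor (gene Srebf2) is released by Scap and the proteases Mbtps1 and Mbtps2 and raises nearly all of these genes together. Insig1 and Insig2 hold it back when sterol is plentiful.

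The promoter windows of 4 of the genes are shown because SREBP-2 acts at such sequences, next to the factors NF-Y and Sp1. Each window runs from 250 bases before to 50 bases after a RefSeq transcription start on GRCm38.p6, written 5′ to 3′ on the strand of the gene. Capitals mark matches, on either strand, to the core of the sterol regulatory element (TCACNCCAC), to the CCAAT box that NF-Y binds (CCAAT, or ATTGG on the opposite strand) and to the GC box that Sp1 binds (GGGCGG, or CCGCCC). None of these matches overlapped another. The windows lie at chr13:119690101-119690400 (forward strand) for Hmgcs1, at chr13:8885356-8885655 (forward) for Idi1, at chr10:76531355-76531654 (forward) for Lss and at chr5:4104648-4104947 (reverse) for Cyp51.
Hmgcs1: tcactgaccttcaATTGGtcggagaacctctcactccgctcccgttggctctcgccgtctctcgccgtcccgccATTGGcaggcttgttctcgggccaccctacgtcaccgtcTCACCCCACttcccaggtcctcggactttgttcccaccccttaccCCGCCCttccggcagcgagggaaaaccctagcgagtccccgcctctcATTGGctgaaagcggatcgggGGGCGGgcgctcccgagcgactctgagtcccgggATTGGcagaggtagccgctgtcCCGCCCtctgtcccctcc
Idi1: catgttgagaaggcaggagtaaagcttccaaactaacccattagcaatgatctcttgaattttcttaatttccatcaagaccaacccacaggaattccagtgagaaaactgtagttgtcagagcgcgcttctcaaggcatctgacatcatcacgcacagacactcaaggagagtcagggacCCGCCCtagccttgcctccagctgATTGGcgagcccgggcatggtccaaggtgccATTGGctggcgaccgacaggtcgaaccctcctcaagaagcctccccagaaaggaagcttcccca
Lss: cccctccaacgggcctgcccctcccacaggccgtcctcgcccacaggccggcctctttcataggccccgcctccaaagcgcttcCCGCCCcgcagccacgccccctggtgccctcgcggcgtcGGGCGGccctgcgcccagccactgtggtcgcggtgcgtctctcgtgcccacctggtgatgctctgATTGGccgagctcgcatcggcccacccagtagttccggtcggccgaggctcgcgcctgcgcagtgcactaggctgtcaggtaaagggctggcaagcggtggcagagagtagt
Cyp51: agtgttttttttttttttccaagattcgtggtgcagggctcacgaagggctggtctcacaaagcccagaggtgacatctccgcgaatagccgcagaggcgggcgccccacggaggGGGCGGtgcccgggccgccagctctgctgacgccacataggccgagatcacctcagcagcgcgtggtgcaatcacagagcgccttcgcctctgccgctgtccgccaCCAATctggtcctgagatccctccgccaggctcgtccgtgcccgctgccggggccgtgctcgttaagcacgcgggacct

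The Hmgcs1 window held the sterol core once, as TCACCCCAC at 137 bases before the start, along with 4 CCAAT boxes and 3 GC boxes. Idi1 had 2 CCAAT boxes and 1 GC box, Lss had 1 and 2, and Cyp51 had 1 of each. Dhcr7, which has 3 windows in the table, had 2 CCAAT boxes and 3 GC boxes in the most downstream of them. Hmgcs1 was thus 1 of 5 matched members with the sterol core, against 1.44% of the 27025 genes with a window. Among related genes with a window, 0 of 4 other mevalonate enzymes, 0 of 7 other post-squalene enzymes and 0 of 7 SREBP control genes had it. All 5 matched members had a CCAAT box and a GC box in at least 1 window, against 41.1% and 38.2% of genes. Sqle and Fdft1 were not matched. A match is a run of letters and not a measured binding site. Only exact matches were sought, so a window without a match may still hold an element that departs from these letters.

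Library totals ranged from 59736771 to 86164159 counts, and each of the 7 genes had between 404 and 26100 reads in every library, so counting error was small beside the spread between mice. UMBO replicate 2 stood apart from the other 4 libraries. The first principal component of the log2 values held 78.7% of the variance and placed UMBO replicate 2 at 134 and the other libraries between -68.4 and 17. Because of this, each fold change given below for a gene of sterol or fatty acid metabolism is also stated without that library. All 8 neuronal, 8 astrocyte and 10 oligodendrocyte marker genes examined passed the filter on low counts. Levels are given as CPM, counts divided by the TMM-scaled library size so that libraries of different depth can be compared. Fold changes are log2 values of UMBO minus vehicle from the quasi-likelihood fit of edgeR over all 23592 genes tested, with the standard error (SE) that its statistic implies.

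No change with UMBO was detected for the 7 cholesterol synthesis genes. By the quasi-likelihood test of edgeR, 0 of the 7 had an adjusted p under 0.05 (0% of all genes tested did) and 0 of the 7 had an unadjusted p under 0.05 (7.37% of all genes did). The DESeq2 Wald test also called 0 of the 7 (0.157% of all genes). For 0 of the 7 did both UMBO libraries lie above every vehicle library, or both below every vehicle library, which was seen in 11.5% and 11.4% of all genes tested. The median log2 fold change of the 7 was -0.12, with 5 values below 0 and 2 above, and the median over all genes tested was 0.01. Lss and Idi1 had the most negative values, at -0.61 and -0.48, and Cyp51 the most positive, at 0.06.

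**Figure D1:**
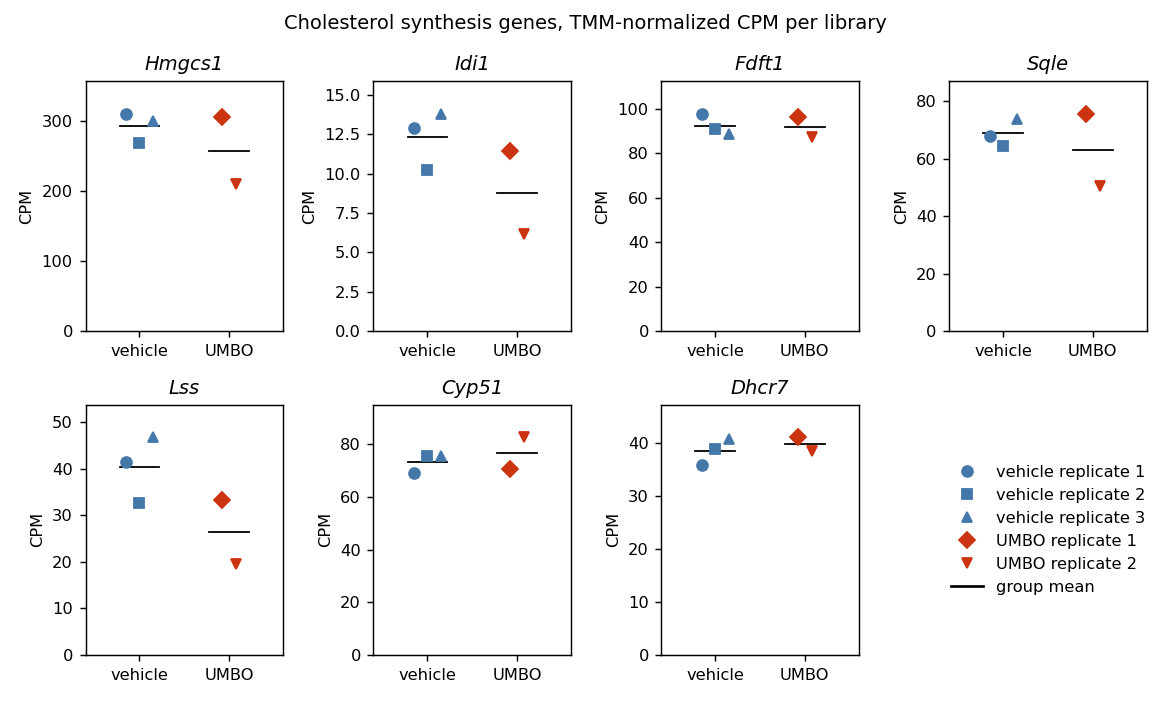
TMM-normalized CPM (y axis, from 0) of the 7 cholesterol synthesis genes in each library, with vehicle replicates as blue circles, squares and triangles, UMBO replicates as red diamonds and downward triangles, and a black line at each group mean. UMBO replicate 1 lies among or near the vehicle libraries for every gene, whereas UMBO replicate 2 is the lowest library for Hmgcs1, Idi1, Fdft1, Sqle and Lss.

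Hmgcs1 (ENSMUSG00000093930, chromosome 13 of GRCm38, 119690379 to 119708260, forward strand) encodes the cytosolic enzyme that condenses acetyl-CoA with acetoacetyl-CoA early in the pathway. It was measured at 310, 268 and 299 CPM in vehicle replicates 1 to 3 and at 305 and 210 CPM in UMBO replicates 1 and 2. UMBO replicate 1 lay inside the vehicle range and UMBO replicate 2 lay below it, at 71.6% of the vehicle mean. The log2 fold change was -0.18 (SE 0.244, 95% interval -0.78 to 0.41, adjusted p = 0.685 in edgeR's quasi-likelihood test). Its value without UMBO replicate 2 was 0.06 and its value without UMBO replicate 1 was -0.51, so the sign of the change depended on 1 mouse.

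Idi1 (ENSMUSG00000058258, chromosome 13, 8885501 to 8892451, forward strand) encodes the isomerase that interconverts the isopentenyl building blocks. It was at 12.9, 10.2 and 13.8 CPM with vehicle and 11.4 and 6.17 CPM with UMBO. Here too UMBO replicate 1 was within the vehicle range, and UMBO replicate 2 was at 50.2% of the vehicle mean. The log2 fold change of -0.48 (SE 0.324, 95% interval -1.27 to 0.31) gave adjusted p = 0.503 in edgeR's quasi-likelihood test. It was -0.10 without UMBO replicate 2 and -1.02 without UMBO replicate 1, and the latter fit gave an edgeR adjusted p of 0.0566.

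Fdft1 (ENSMUSG00000021273, chromosome 14, 63145150 to 63179578, reverse strand) encodes squalene synthase, the first enzyme committed to sterols. Its level was 97.9, 91.1 and 88.6 CPM with vehicle and 96.5 and 87.4 CPM with UMBO. The groups overlapped and the log2 fold change was -0.01 (SE 0.165, 95% interval -0.41 to 0.39, adjusted p = 0.979 in edgeR's quasi-likelihood test). This value was 0.06 without UMBO replicate 2 and turned to 0.11 when libraries were scaled by their size alone, which moved the median of all genes from 0.01 to 0.13. Fdft1 shares exon positions with Ctsb on the opposite strand, a cathepsin gene with 42078 to 78957 reads per library and a log2 fold change of 0.69. Whether the counting used strand is not given in the sources used here, so the count of Fdft1 is less certain than those of Sqle and Dhcr7, which overlap no annotated exon of another gene.

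Sqle (ENSMUSG00000022351, chromosome 15, 59315077 to 59331192, forward strand) encodes squalene epoxidase, another control point of the pathway. It was at 68.0, 64.6 and 73.8 CPM with vehicle and at 75.7 and 50.5 CPM with UMBO. The UMBO libraries lay on opposite sides of the vehicle range, at 110% and 73.4% of the vehicle mean. The log2 fold change was accordingly close to 0, at -0.12 (SE 0.220, 95% interval -0.66 to 0.41, adjusted p = 0.765 in edgeR's quasi-likelihood test). It was 0.14 without UMBO replicate 2 and -0.48 without UMBO replicate 1.

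Lss (ENSMUSG00000033105, chromosome 10, 76531588 to 76557138, forward strand) encodes lanosterol synthase, which closes the sterol rings. Its values were 41.4, 32.6 and 46.7 CPM with vehicle and 33.3 and 19.6 CPM with UMBO. Vehicle replicate 2 lay just under UMBO replicate 1, so the groups overlapped by 1 library, as they did for Idi1. Leaving out vehicle replicate 2 therefore removes the overlap of both genes by construction. The share of all genes without overlap was not computed for that fit. The mean was 40.2 ± 7.12 CPM (SD, n = 3) with vehicle and 26.4 ± 9.71 CPM (SD, n = 2) with UMBO. Among the 7 genes Lss had the largest log2 fold change, -0.61 (SE 0.289, 95% interval -1.31 to 0.10), with an unadjusted p of 0.0806 and adjusted p = 0.497 in edgeR's quasi-likelihood test. Its sign was negative in every fit, from -0.27 without UMBO replicate 2 to -1.07 without UMBO replicate 1. Only the fit without UMBO replicate 1 took an adjusted p of the 7 genes below the threshold, at 0.0412 for Lss in edgeR, and that fit rests on UMBO replicate 2 as the lone treated mouse and called 4543 genes in all.

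Cyp51 (ENSMUSG00000001467, chromosome 5, 4081145 to 4104746, reverse strand) encodes the lanosterol demethylase that follows Lss. It was the 1 member whose highest value was in UMBO replicate 2, with 69.1, 75.5 and 75.7 CPM in the vehicle libraries and 70.5 and 82.7 CPM in the UMBO libraries. The log2 fold change was 0.06 (SE 0.167, 95% interval -0.35 to 0.47, adjusted p = 0.851 in edgeR's quasi-likelihood test), and it was -0.06 without UMBO replicate 2. Cyp51 shares exon positions with Akap9 on the opposite strand, which had 5759 to 12090 reads per library and a log2 fold change of -0.54.

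Dhcr7 (ENSMUSG00000058454, chromosome 7, 143823145 to 143848410, forward strand) encodes the reductase that turns 7-dehydrocholesterol into cholesterol. It was at 35.8, 38.9 and 40.7 CPM with vehicle and 41.1 and 38.5 CPM with UMBO. All 5 libraries lay within 93.1% and 107% of the vehicle mean. Its log2 fold change of 0.05 (SE 0.153, 95% interval -0.33 to 0.43) gave adjusted p = 0.869 in edgeR's quasi-likelihood test, and the value was 0.10 without UMBO replicate 2. The upper bounds of the intervals stayed below 0.5 for all 7 genes, whereas the lower bounds reached -1.27 for Idi1 and -1.31 for Lss, so the intervals of these 2 genes still held decreases of more than 1 on the log2 scale.

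**Figure D2:**
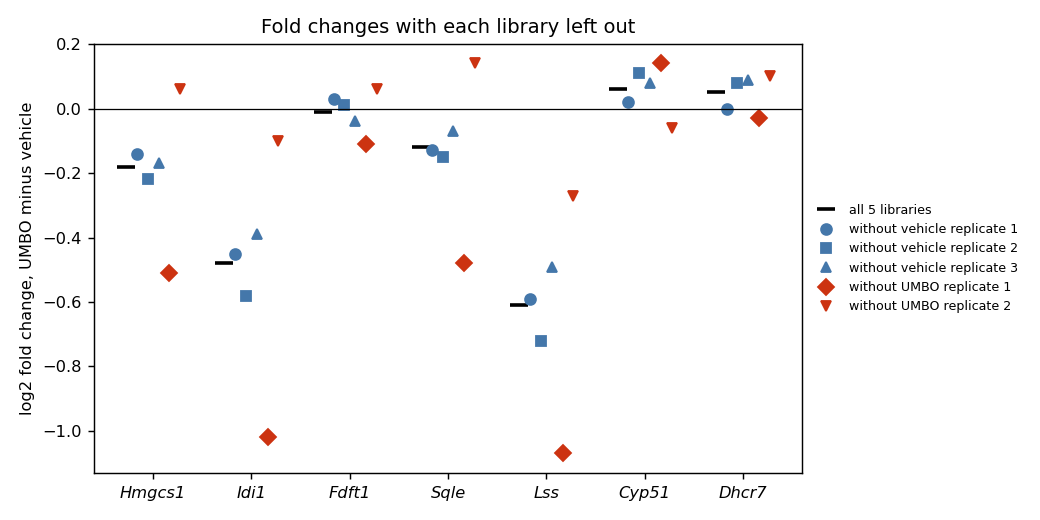
Log2 fold change of each cholesterol synthesis gene (y axis, UMBO minus vehicle, edgeR) with all 5 libraries (black dash) and with each library left out in turn (blue for vehicle, red for UMBO). Leaving out either UMBO replicate moved Hmgcs1, Idi1, Sqle and Lss farthest, from -0.51 to 0.06 for Hmgcs1 and from -1.07 to -0.27 for Lss, while Fdft1, Cyp51 and Dhcr7 stayed between -0.11 and 0.14.

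On the log2 scale, the 2 UMBO libraries differed from each other by more than the fold change between the groups for each of the 7 genes. Set against the mean of the vehicle libraries, the 7 genes had a median log2 value of 0.06, -0.09 and 0.08 in vehicle replicates 1 to 3, of 0.06 in UMBO replicate 1 and of -0.44 in the other UMBO library. UMBO replicate 1 lay above every vehicle library for 2 of the 7 genes, Sqle and Dhcr7 (18.6% of all genes did so), and below every vehicle library for 0 of the 7 (17.9% of all genes). UMBO replicate 2 lay below every vehicle library for 5 of the 7 (41.6% of all genes) and above for 1, Cyp51 (42.2% of all genes).

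Levels of different genes can be compared only per length, here as CPM per kilobase of annotated exon. In the vehicle libraries Hmgcs1 was the most abundant, at 63.7 ± 4.70 CPM per kilobase (SD, n = 3). Fdft1 followed at 21.9 ± 1.14, Cyp51 at 16.6 ± 0.846, Sqle at 12.4 ± 0.845 and Dhcr7 at 6.61 ± 0.421 CPM per kilobase. Lss at 3.73 ± 0.660 and Idi1 at 3.50 ± 0.528 did not differ beyond their spread. The order of the first 5 was the same in each of the 5 libraries. With the length of the longest principal transcript in place of all exons, Sqle moved up to 24.9 ± 1.70 CPM per kilobase, level with Fdft1 at 25.0 ± 1.31, and Lss at 8.62 ± 1.53 stood above Idi1 at 4.06 ± 0.612. The order in the middle of the list thus depended on the gene model. The exons of Sqle span 5546 bases in all against 2758 in its principal transcript, and those of Lss 10787 against 4667.

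No group difference was detected for the other 14 enzymes of the pathway either. Of these, 7 had a log2 fold change above 0 and 7 below, the median was 0.01, and 0 of 14 passed an unadjusted p of 0.05 by edgeR. In UMBO replicate 2, 7 of the 14 lay above every vehicle library and 7 below, or 50% each way against 42.2% and 41.6% of all genes. Hsd17b7, a sterol ketone reductase, was at 43.9% of its vehicle mean there, Nsdhl, which removes a sterol carboxyl group, at 66.1%, and Sc5d, a late desaturase, at 65.1%. Ebp, the sterol isomerase, was at 201% of its vehicle mean and Lbr, a nuclear envelope protein that is also a sterol reductase, at 173%. In UMBO replicate 1 the same 5 genes lay between 102% and 117%. Ebp had the smallest p of the 14, with a log2 fold change of 0.66 (SE 0.289, unadjusted p = 0.0621, adjusted p = 0.497 in edgeR), and 0.21 without UMBO replicate 2. In the main fit Mvd, which decarboxylates the mevalonate chain, was the 1 enzyme of 21 whose UMBO values both exceeded all vehicle values. It was at 17.9 and 19.1 CPM with UMBO against 14.8 to 16.9 CPM with vehicle. Of all genes tested, 11.5% separated upward in this way, a share that 1 of 21 does not exceed. The log2 fold change of Mvd was 0.21 (SE 0.174, adjusted p = 0.546 in edgeR), and 0.16 without UMBO replicate 2.

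**Figure D3:**
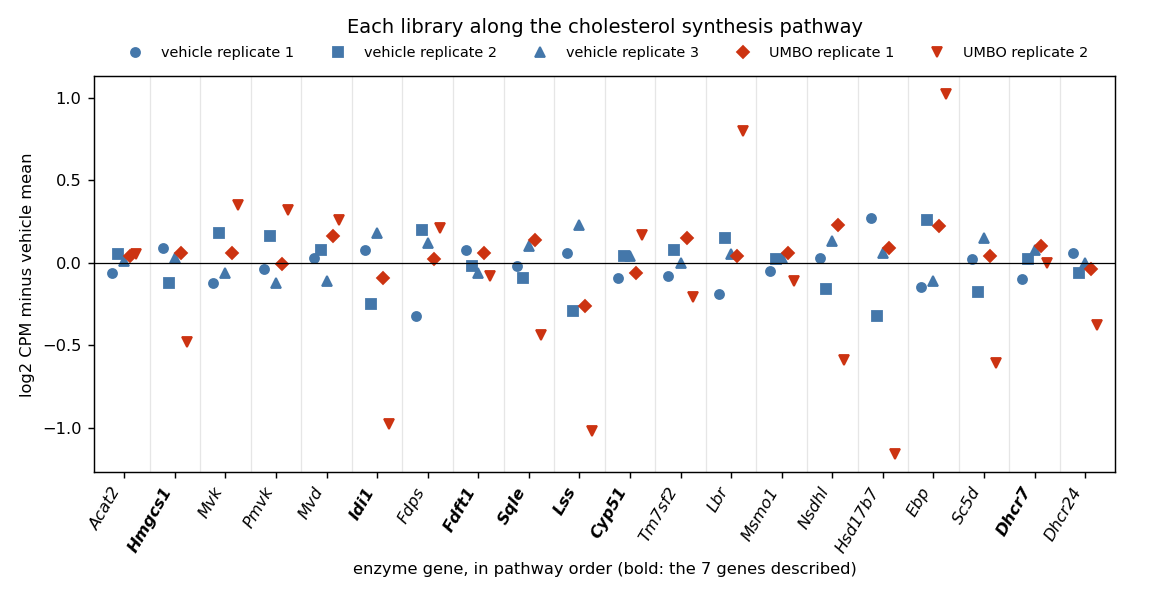
Log2 CPM of each library minus the vehicle mean (y axis) for the enzyme genes plotted, in pathway order (x axis), with blue symbols for vehicle and red symbols for UMBO replicates and the 7 described genes in bold. UMBO replicate 2 spreads from -1.16 for Hsd17b7 to 1.02 for Ebp, while UMBO replicate 1 stays between -0.26 and 0.23.

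Among the 7 genes of SREBP control, which include Srebf2 and Srebf1 themselves, 1 was above 0 (Srebf1) and 6 were below 0. The median of the 7 was -0.20 on the log2 scale, and 0 of 7 passed an unadjusted p of 0.05 by edgeR. The median was -0.02 without UMBO replicate 2. Srebf2 itself was at 216, 182 and 198 CPM with vehicle and at 188 and 127 CPM with UMBO, a log2 fold change of -0.34 (SE 0.241, adjusted p = 0.513 in edgeR) that was -0.08 without UMBO replicate 2. Both UMBO libraries lay below every vehicle library for 1 of these 7 genes, against 11.4% of all genes tested. This was Insig1, a target of SREBP-2 as well as its brake, at 86.1 and 70.1 CPM against 91.4, 92.9 and 91.9 CPM. Its log2 fold change was -0.24 (SE 0.174, adjusted p = 0.518 in edgeR), and -0.09 without UMBO replicate 2.

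**Figure D4:**
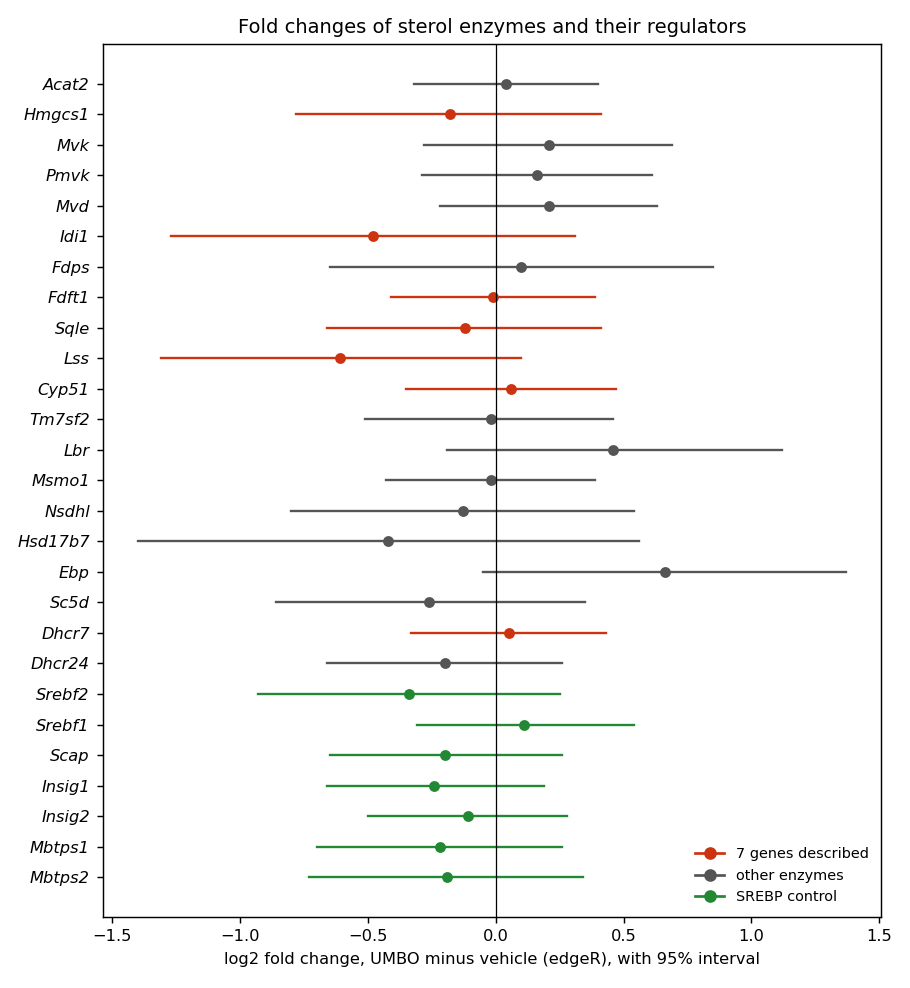
Log2 fold change of UMBO minus vehicle from edgeR (points) with 95% intervals (lines) for the 7 described genes (red), other enzymes of the pathway (grey) and the SREBP control genes (green). Every interval shown includes 0, the nearest to leaving it out being that of Ebp at -0.05 to 1.37.

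Over 10 genes of cholesterol uptake and transport, 3 log2 fold changes were above 0 and 7 below, with -0.27 as the median. Npc2, which carries cholesterol out of lysosomes, was at 57.9, 125 and 74.3 CPM with vehicle and 114 and 271 CPM with UMBO, a log2 fold change of 1.17 (SE 0.467, adjusted p = 0.497 in edgeR) that was 0.41 without UMBO replicate 2. Lipa, the lysosomal acid lipase, was at 23.0, 22.9 and 31.1 CPM with vehicle and 33.7 and 34.9 CPM with UMBO, a log2 fold change of 0.42 (SE 0.200, unadjusted p = 0.0824 in edgeR) that was 0.39 without UMBO replicate 2. Of 7 genes for export and its LXR regulators, 5 were above 0, and none had an unadjusted p under 0.05 in edgeR. Mylip, an LXR target that encodes a ubiquitin ligase, was at 17.9, 19.3 and 18.8 CPM with vehicle and 25.0 and 23.5 CPM with UMBO, a log2 fold change of 0.38 (SE 0.160, unadjusted p = 0.0559 in edgeR), and was 0.42 without UMBO replicate 2.

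Apoe, the main lipoprotein of the brain, was higher in both UMBO libraries (1624 and 1944 CPM) than in every vehicle library (1103 to 1525 CPM), as were 11.5% of all genes tested. Its log2 fold change was 0.45 (SE 0.285, adjusted p = 0.497 in edgeR), and 0.32 without UMBO replicate 2. Nr1h3, which encodes LXR-alpha, had a log2 fold change of 1.01 (SE 0.446) that was 0.19 without UMBO replicate 2. Abca1, the cholesterol exporter that LXR raises, was at 73.0 CPM in UMBO replicate 1 and 46.1 CPM in UMBO replicate 2 against 44.1 to 59.2 CPM with vehicle, and its log2 fold change of 0.26 (SE 0.257) was 0.56 without UMBO replicate 2 and turned to -0.14 without UMBO replicate 1.

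Among 7 genes of storage and oxysterols, Ch25h, which makes 25-hydroxycholesterol and is induced in activated myeloid cells, was at 0.174, 1.26 and 0.461 CPM with vehicle and at 1.70 and 8.78 CPM with UMBO. Its log2 fold change was 3.05 (SE 0.970, 95% interval 0.68 to 5.43, unadjusted p = 0.0200, adjusted p = 0.497 in edgeR), and it was 1.43 without UMBO replicate 2. Soat1, which esterifies cholesterol for storage, had a log2 fold change of 0.32 (SE 0.178, adjusted p = 0.497 in edgeR) that was 0.22 without UMBO replicate 2. Both UMBO libraries were above every vehicle library for Soat1, as for 11.5% of all genes tested. Its relative Soat2, at 2.12 CPM or less in every library, had a log2 fold change of 1.84 (SE 0.909) that was 0.22 without UMBO replicate 2. Cyp46a1, the neuronal 24-hydroxylase, was at 202, 188 and 163 CPM with vehicle and 174 and 110 CPM with UMBO, a log2 fold change of -0.38 (SE 0.263, adjusted p = 0.508 in edgeR) that was -0.08 without that library.

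In the 9 genes of the isoprenoid branches, which lead to ubiquinone, dolichol and prenylated proteins, the median was -0.05. Ggps1, which makes geranylgeranyl diphosphate, had a log2 fold change of -0.48 (SE 0.288), Dhdds, of the dolichol branch, -0.24 (SE 0.174), and Fnta, a prenyltransferase subunit, 0.28 (SE 0.181). Without UMBO replicate 2 these were -0.13, -0.12 and 0.11. All 7 genes of fatty acid synthesis, which SREBP-1 and in part SREBP-2 raise, had log2 fold changes below 0, with a median of -0.34. Of all 23592 genes tested, 11585 were below 0. Fasn, the fatty acid synthase, was at -0.48 (SE 0.284), Acaca, the carboxylase before it, at -0.37 (SE 0.237) and the elongase Elovl6 at -0.34 (SE 0.197), and without UMBO replicate 2 they were at -0.16, -0.12 and -0.20. None of the 9 or of the 7 had an unadjusted p under 0.05 in edgeR. UMBO replicate 1 was inside the vehicle range for all 7 fatty acid genes. UMBO replicate 2 was below it for all 7, and for 41.6% of all genes tested.

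Fewer cells of a type and less RNA per cell cannot be told apart in bulk tissue, so the marker genes of the cells that make cholesterol are given beside these values. The summed level of 10 oligodendrocyte markers was 6286, 6394 and 6283 CPM with vehicle and 6645 and 5698 CPM with UMBO. That of 8 astrocyte markers was 4434, 3712 and 5174 CPM with vehicle, 4783 CPM in UMBO replicate 1 and 2218 CPM in UMBO replicate 2. That of 8 neuronal markers was 7912, 5233 and 5170 CPM with vehicle, 5439 CPM in UMBO replicate 1 and 2735 CPM in UMBO replicate 2.

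The library with the lowest Hmgcs1, Idi1, Sqle and Lss was thus also the lowest in astrocyte, neuronal and choroid plexus markers. It was the highest in 8 monocyte and macrophage markers, at 452 CPM against 25.2 to 124 CPM with vehicle, and in 10 proliferation markers, at 465 CPM against 36.5 to 108 CPM with vehicle. UMBO replicate 1 had 92.0 and 114 CPM of these. The median log2 value over the list, relative to the vehicle mean, was -0.44 for the 7 cholesterol genes in UMBO replicate 2, between -0.17 for oligodendrocytes and -0.62 for astrocytes. For 6 of 8 microglia markers and 3 of 7 endothelial markers no UMBO value was under the highest vehicle value, against 11.5% of all genes tested. In each of these lists 2 markers were below the vehicle mean in UMBO replicate 2. The groups separated the other way, with UMBO lower, for 4 of 8 neuronal and 4 of 8 striatal markers, against 11.4% of all genes. The 7 T cell markers summed to 12.6 and 45.9 CPM with UMBO and 19.8 to 33.1 CPM with vehicle. Cd4 held much of this sum, at 14.6, 14 and 7.31 CPM with vehicle and 4.56 and 8.31 CPM with UMBO. Its log2 fold change was -0.90, whereas the 6 other T cell markers were above 0, with UMBO replicate 1 inside the vehicle range. The 8 striatal markers summed to 688 and 986 CPM with UMBO against 737 to 1225 CPM with vehicle. Oligodendrocyte progenitor markers summed to 877 and 1077 CPM with UMBO and 528 to 637 CPM with vehicle. The part of tissue composition in the values of the cholesterol genes was not tested.

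**Figure D5:**
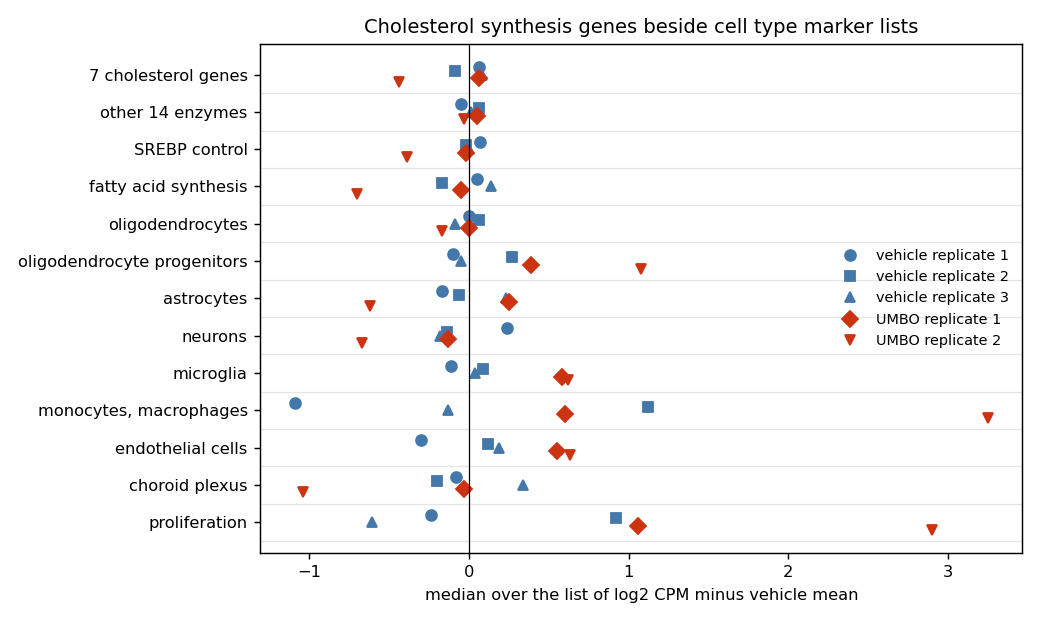
Median over each gene list of the log2 CPM minus the vehicle mean (x axis), per library, for the cholesterol synthesis genes, related lists and cell type markers (rows), with vehicle libraries in blue and UMBO libraries in red. UMBO replicate 2 lies left of all other libraries for the 7 cholesterol genes (-0.44), astrocytes (-0.62), neurons (-0.67) and choroid plexus (-1.04) and far right for monocytes and macrophages (3.25) and proliferation (2.90).

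The course of the mean of the 7 over the 5 libraries was set beside those of 10851 genes with a mean of at least 10 CPM, a search that left out all genes of the lists, other sterol genes included. The nearest were Crat, Lrsam1, AI597479, Cldnd1 and Rcbtb1, with root mean square differences of 0.0174 to 0.0223 on the log2 scale over the 5 libraries. Crat, for example, was at 50.1, 47.1 and 52.6 CPM with vehicle and 50.8 and 38.4 CPM with UMBO. Among the members Hmgcs1 and Sqle were closest to that mean, at 0.0617 and 0.0665, and 232 and 306 of the 10851 genes were nearer than they were. Lss was the farthest at 0.265, with 5508 genes nearer.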

How the data were processed

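Total RNA from the right hemisphere of 5 mice was sequenced. The authors deposited raw counts, whole numbers of reads per Ensembl gene, in 1 file per library, and the submitters' processing notes name STAR 2.7.2a and DESeq2. The annotation release and the strand setting are not given in the sources used here. Library totals lay between 59736771 and 86164159. Symbols, exons and coordinates were taken from GENCODE M21 (GRCm38), which matched 55480 of 55573 genes; the others held at most 0.00173% of a library. Promoter windows were RefSeq's.

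Groups came from the labels. The 3 vehicle and 2 UMBO libraries were compared over the 23592 genes kept by filterByExpr with edgeR 4.0.16 (R 4.3.3), using TMM scaling, the quasi-likelihood test and Benjamini-Hochberg adjustment over all genes tested, with calls at an adjusted p under 0.05. CPM values used TMM library sizes. Standard errors and 95% intervals were derived from the test statistic. The procedure was tested on simulated data. No label ties libraries to cultures or litters, so p-values measure the spread between these samples.

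Alternatives were DESeq2 1.42.0, other scaling, other filters, a replicate block and each library left out. The alternatives for genes outside the 7 and for list medians, and the principal transcript length, were added after the data were seen. The 7 genes and all gene lists were chosen with earlier results of these data known. The text names the 7 genes, genes of the other enzyme and SREBP lists, the 3 lowest p-values of every other list, Abca1, Apoe and Cyp46a1, and the 5 genes with a mean of at least 10 CPM outside all lists whose centred log2 profile lay nearest the mean of the 7. Genes sharing exon positions with a member are named for that reason. Some genes that this rule selects are not reported here.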

Additional observations from a re-analysis of the deposited data

How the results depend on the processing

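With 3 and 2 mice, single libraries decided most values, and depth did not limit the 7 genes. When single libraries were left out, the count of the 7 genes called lay between 0 and 1 (Lss, without UMBO replicate 1), the count at an unadjusted p under 0.05 between 0 and 3, the count without overlap between 0 and 6, their median log2 fold change between -0.48 and 0.06, that of the other 14 enzymes between -0.06 and 0.07, that of the SREBP control genes between -0.43 and -0.02, and the number of all genes called between 0 and 4543. Where a UMBO library was left out, the lone treated library was assumed to vary like the vehicle group. The highest of these counts all came from the fit without UMBO replicate 1. Far more of all genes passed the unadjusted p there than in the main fit. UMBO replicate 2 was also outside the vehicle range for most genes of the main fit, 42.2% above it and 41.6% below. The highest counts were thus not particular to the 7 genes. Signs turned for Hmgcs1 (-0.51 to 0.06), Sqle (-0.48 to 0.14), Fdft1 (-0.11 to 0.06), Dhcr7 (-0.03 to 0.10), Cyp51 (-0.06 to 0.14), Hsd17b7 (-1.22 to 0.08) and Abca1 (-0.14 to 0.56). The sign of Idi1 and of Lss stayed negative in these fits.

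Scaling by library size alone moved the median of all genes from 0.01 to 0.13, that of the 7 to -0.02 and that of the other 14 enzymes to 0.12, left 2 of the 7 without overlap (Fdft1 and Dhcr7, above) and took Fdft1 to 0.11. A minimum mean of 1 CPM took Fdft1 to 0.02 and left 1 of the 7 without overlap. The share of all genes without overlap was computed only for the main fit, at 11.5% above and 11.4% below. The counts without overlap under other scaling or filters, or with a vehicle library left out, therefore have no background to be read against. Without a filter, 1 of the 7 (Lss) had an unadjusted p under 0.05 in edgeR, as did 2954 higher and 1146 lower of 40435 genes. DESeq2 called 37 genes, none of the 7. An adjusted p of 0.1 called 0 genes in edgeR.

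Groups share replicate numbers 1 and 2, but no label says that a number marks a shared litter or day, and only 2 pairs exist (correlations of deviations 0.453 and 0.760). With the replicate block edgeR called 2337 of 23592 genes, none of the 7. In that fit 1 of the 7 had an unadjusted p under 0.05 (Lss, whose edgeR adjusted p was 0.102). Of all 23592 genes, 3396 with a higher and 2738 with a lower value did so too. The causes were not tested.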
